A study of Mus musculus with 16 samples.

Results

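Enterochromaffin (EC) cells of the small intestinal crypt were compared with the other epithelial cells of the crypt in the mouse. The 8 libraries whose titles name one of these crypt populations were taken, 4 of EC cells (crypt EC) and 4 of the other cells (crypt epi), out of 16 in the series. The other libraries hold the same populations from the villus (villus EC and villus epi, 4 each). Every mouse, in all groups, had the genotype Tph1-CFP, was untreated and was 8 to 16 weeks old. In this genotype a cyan fluorescent protein (CFP) marks EC cells, and the labels do not give the regulatory sequence that drives it. Epithelium of the crypts of the whole small intestine was dissociated and sorted by fluorescence, and 5000 cells were pooled per library. Crypt EC are the CFP-positive cells and crypt epi the CFP-negative cells, so crypt epi is a mixture of Paneth, goblet, tuft, stem, dividing and absorptive cells and of the endocrine cells that make other hormones. The labels give 4 mice or samples per group and do not tie a library to a mouse, so p-values measure the spread between these libraries.

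EC cells are the endocrine cells of the gut that make serotonin. They arise in the crypt from stem cells through a progenitor that expresses Neurog3, leave the cell cycle, and keep serotonin and peptides in dense-core granules that fuse with the basal membrane when the cell is excited. Their serotonin acts on nerve endings, smooth muscle and neighbouring epithelium, and they respond to nutrients, irritants and hormones through receptors and voltage-gated channels.

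Identity was checked with Tph1, for which the reporter is named and which encodes the tryptophan hydroxylase that limits serotonin synthesis in the gut (ENSMUSG00000040046, chromosome 7, 46644641 to 46672537 on mm10), and Chga, which encodes the granule protein chromogranin A (ENSMUSG00000021194, chromosome 12, 102554969 to 102565028 on mm10). Their promoters are shown because these genes carry the identity of the sorted cells. RefSeq gives 2 starts for Tph1 and 1 for Chga on GRCm38.p6 (the mm10 assembly), and the 250 bases before each start are printed 5′ to 3′ on the strand of the gene. Capitals mark matches, on either strand, to TGACGT (the core of a cyclic AMP response element), CAGNTG (an E-box read by basic helix-loop-helix factors such as Neurod1) and TATAAA (the TBP box of core promoters).
Tph1, outer start, chr7:46672538-46672787, minus strand: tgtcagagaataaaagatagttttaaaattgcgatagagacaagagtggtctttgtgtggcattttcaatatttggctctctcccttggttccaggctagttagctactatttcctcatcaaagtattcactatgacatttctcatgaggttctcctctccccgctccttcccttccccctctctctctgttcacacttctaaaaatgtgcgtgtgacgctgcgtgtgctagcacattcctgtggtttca
Tph1, inner start, chr7:46667378-46667627, minus strand: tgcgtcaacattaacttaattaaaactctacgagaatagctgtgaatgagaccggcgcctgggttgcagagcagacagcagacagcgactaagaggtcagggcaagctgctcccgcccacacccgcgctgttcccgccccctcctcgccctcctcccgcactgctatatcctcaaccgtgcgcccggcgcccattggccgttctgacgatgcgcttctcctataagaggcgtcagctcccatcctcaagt
Chga, chr12:102554691-102554940, plus strand: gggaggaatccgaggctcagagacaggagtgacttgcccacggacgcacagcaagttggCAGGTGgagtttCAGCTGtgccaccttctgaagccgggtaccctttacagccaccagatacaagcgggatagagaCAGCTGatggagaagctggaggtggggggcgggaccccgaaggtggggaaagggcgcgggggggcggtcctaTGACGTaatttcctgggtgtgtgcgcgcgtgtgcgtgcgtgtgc

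The Chga window held 1 match to TGACGT, 44 bases before the start, and 3 matches to CAGNTG. Neither Tph1 window held any of the 3 motifs, which says only that these letters are not in these windows. Over all 32851 RefSeq promoter windows of the same length, 6.47% held TGACGT, 44.8% CAGNTG and 12.4% TATAAA. Among windows of the genes tested, the matching background, the shares were 9.52%, 39.3% and 6.9%. Among windows of genes at least 2-fold higher in crypt EC the shares were 7.88%, 42.4% and 7.11%, and among those of genes at least 2-fold lower 6.5%, 44.8% and 9.04%. A match is a description of letters, not a site that a factor was shown to use.

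Values are the deposited FPKM (fragments scaled to transcript length and to the size of the library), a level per transcript length, and each log2 fold change is the crypt EC mean minus the crypt epi mean of log2(FPKM + 1), a scale that understates the change of low genes. Column totals ran from 731415 to 766491 in crypt EC and from 1045160.0 to 1136983 in crypt epi, and 13029 to 13071 genes against 12055 to 12200 reached a value of 1. Read counts are not given, so the depth is unknown. The 2 groups lay apart on the first principal component of the 8 libraries, which took 86.5% of the variance. Crypt EC replicate 1 and crypt epi replicate 3 stood apart within their groups and shared features. Both had high Y-linked transcripts (Ddx3y at 21.9 and 23.4, Eif2s3y at 37.9 and 31.1), while the other 6 had Ddx3y between 0.0883 and 0.463. Within its group each also had the highest Cd74 and H2-Aa and the lowest Apoa1. Cd74 was at 629, 115, 111 and 101 in crypt EC and 527, 546, 1859 and 490.1 in crypt epi, and Apoa1 at 115, 509, 532 and 509 in crypt EC and 1932, 1869.8, 428 and 2039 in crypt epi, in the order of replicates 1 to 4. Because 1 such library lies in each group, results were also computed over the 3 libraries against 3 with low Y-linked transcripts.

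Of 13063 genes tested (at least 1 FPKM in at least 4 of the 8 libraries), 8810, or 67.4%, passed the test (limma, adjusted p below 0.05). In crypt EC 4476 genes (34.3%) were higher and 4334 (33.2%) lower, and at least 2-fold 1987 (15.2%) were higher and 1555 (11.9%) lower. The groups did not overlap for 7906 of the 8810 called genes, in other words every library of one group lay above every library of the other. These shares are the background against which the counts of each gene group are read below. Over the 3 against 3 libraries 4451 genes were higher and 4413 lower. When each library was instead scaled to the same total, which moved the median log2 fold change of all genes from 0.02 to 0.50, 7654 genes were higher and 2050 lower. Directions of small differences therefore rest on the scaling of the deposited values, and groups whose direction moved with it are named. Of the single genes named here, 17 lost their call with the same total, among them Apoe, Apoh, Cd14, Cd68, Cd74, Cpd, Efnb2, Epcam, H2-Aa, Kcnk1, L1cam, Lgr5, Olfm4, Rab27a, Scg2 and Tyrobp. With that scaling Ern1, Neurog3 and Pola1 passed the test as higher in crypt EC.

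**Figure D1:**
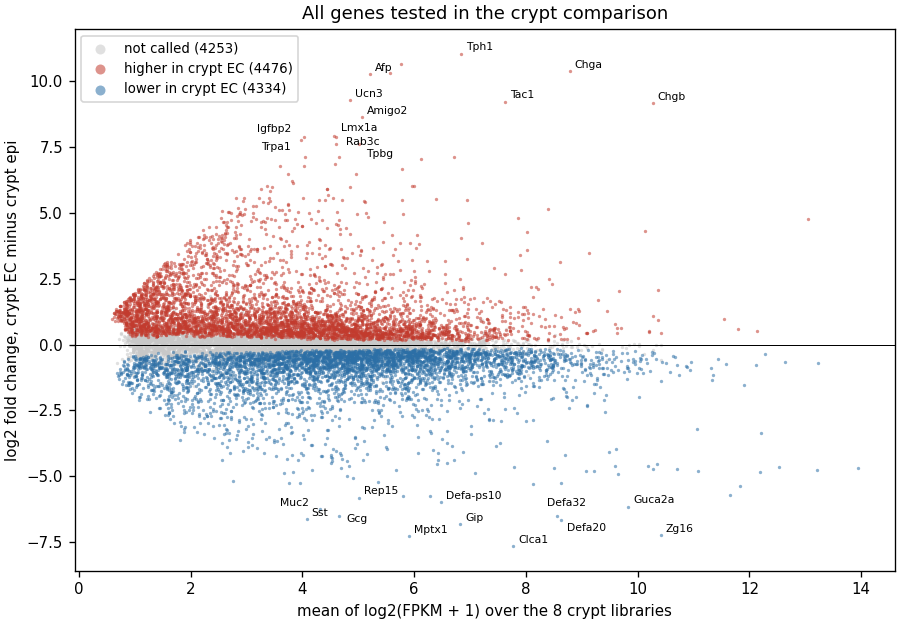
Each point is 1 of the 13063 genes tested, with its mean log2(FPKM + 1) over the 8 crypt libraries on the horizontal axis and its log2 fold change (crypt EC minus crypt epi) on the vertical axis, coloured by the limma call. Named are the 12 named genes with the largest rise, led by Tph1 (11.04), and the 12 with the largest fall, led by Clca1 (-7.65).

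The labels were checked against defining genes. Tph1 was at 3678, 5573, 6163 and 6152 in crypt EC and 1.95, 1.84, 0.733 and 1.76 in crypt epi, and no library of one group came near the other (log2 fold change 11.04 ± 0.21 (SE), limma adjusted p = 4.52e-10). Chga was at 15732, 16846, 15491 and 16100.0 in crypt EC and 13.9, 11.1, 8.71 and 11.5 in crypt epi (log2 fold change 10.36 ± 0.11 (SE), limma adjusted p = 2.29e-11), with the crypt EC libraries within a narrow range. Since the reporter is named for Tph1, its difference describes the sort. Epcam, an adhesion protein of all gut epithelium, was present in both groups at 596 ± 31.9 against 937 ± 52.2 (SD, n = 4) and was lower in crypt EC (-0.65). Of 23 keratin, junction and villin genes, 5 were higher in crypt EC and 16 lower (median -0.46). With the same total in each library these became 8 higher and 6 lower, with a median of 0.08. Krt7, a keratin of simple epithelia, rose by 2.66 (535 against 78.3), and Cldn4, a tight junction claudin, by 3.38 (162 against 14.9). Cldn15, the pore-forming claudin of the small intestine, fell to 60.9 against 437 (-2.85), so the claudins of crypt EC and crypt epi differed in both directions.

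Genes of serotonin handling went in both directions. The decarboxylase gene Ddc, which makes the last step to serotonin, was at 1055, 877, 823 and 860.4 in crypt EC and 75.5, 79, 68.6 and 72.8 in crypt epi (log2 fold change 3.59 ± 0.09 (SE), limma adjusted p = 1.87e-09). The vesicular monoamine transporters Slc18a1 (825 ± 85.5 against 17.6 ± 0.837, SD, n = 4) and Slc18a2 (112 ± 11.9 against 2.37 ± 0.171) rose by 5.47 and 5.06. Tph1 needs the cofactor tetrahydrobiopterin, and Gch1, the enzyme that starts its synthesis, was at 230.5, 192, 178 and 189 in crypt EC and 3.81, 5.21, 5.39 and 7.04 in crypt epi (log2 fold change 4.98). Qdpr, which regenerates the cofactor, rose by 2.47, and Pts and Pcbd1 by 0.70 and 0.61, while Spr, the last enzyme of the synthesis, fell (-0.82, 38.2 against 68.3).

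The serotonin reuptake transporter gene Slc6a4 was at 18.8, 14.2, 14.6 and 14.5 in crypt EC and 132, 145, 125 and 119.6 in crypt epi, so every crypt EC library lay below every crypt epi library (log2 fold change -3.0 ± 0.10 (SE), limma adjusted p = 1.33e-08). Maoa, the monoamine oxidase that degrades serotonin, was at 28.8, 18.4, 15.8 and 14.7 in crypt EC and 238, 234, 203 and 232 in crypt epi (log2 fold change -3.53 ± 0.18 (SE), limma adjusted p = 1.65e-07), and Maob fell by 1.13 on the log2 scale. In all 8 of the 13 tested members were higher and 5 lower, against 34.3% and 33.2% of all genes tested.

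Most dense-core granule genes tested were higher in crypt EC. Chgb, which encodes chromogranin B, was at 27308, 30501, 30109 and 30568 in crypt EC and 68.3, 52.2, 28.4 and 64.2 in crypt epi (log2 fold change 9.16 ± 0.24 (SE), limma adjusted p = 2.81e-09). Among granule proteins and the enzymes that cut prohormones, 12 of the 15 tested members were higher and 3 lower (median 4.78, against 0.02 for all genes). The convertase gene Pcsk1 rose to 499.9 ± 5.25 against 6.99 ± 1.84 (6.0), Scg5, whose product assists the convertase PC2, by 6.0, the carboxypeptidase gene Cpe to 1222 ± 81.3 against 46.1 ± 16.8 (4.78), and Pam, which amidates peptides, by 4.85. Resp18 rose by 7.02 and the granule membrane phosphatase-like gene Ptprn by 5.54. The other main convertase gene, Pcsk2, was at 0.559 against 0.183 and was not tested. The 3 members that fell were Scg2 (-0.89, 8.02 against 16.1), Nucb2 (-0.94) and Cpd (-0.76). The values of Scg2 were 4.38, 9.01, 9.9 and 8.78 in crypt EC and 21.9, 18.5, 7.93 and 16.1 in crypt epi, which overlapped, and its call was lost when crypt EC replicate 1 was left out (-0.66, adjusted p = 0.0682) and when crypt epi replicate 1, 2 or 4 was left out.

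Of the genes for vesicle docking and fusion, 23 of the 29 tested members were higher and 4 lower (median 2.99). The fusion proteins Snap25 (6.87, 264 against 1.36) and Stx1a (3.68) rose together with the complexins Cplx1 (4.45) and Cplx2 (3.80), which clamp the complex. Members of 1 family differed. Of the Rab3 GTPases that tether vesicles, Rab3c was at 395, 358, 367 and 364 in crypt EC and 0.727, 0.431, 0.593 and 0.573 in crypt epi (log2 fold change 7.88 ± 0.08 (SE), limma adjusted p = 1.67e-11), Rab3b rose by 5.47, Rab3a by 1.25 and Rab3d by 0.47. Among synaptotagmins, a family that holds the calcium sensors of fusion, Syt13 rose to 159 against 2.19 (5.67) and Syt5 to 71.6 against 1.33 (4.94), while Syt7 did not pass the test (0.14, adjusted p = 0.755) except without crypt EC replicate 1 (0.54, adjusted p = 0.0166) and over the 3 against 3 libraries. The members that fell were Rab27a (-0.57), Rab27b (-2.15) and the Rab27 effectors Sytl2 (-4.23) and Sytl4 (-2.16). Sytl2 was at 5.09, 2.93, 4.07 and 2.83 in crypt EC and 87.5, 93.7, 79.6 and 84.8 in crypt epi, with no overlap between the groups.

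Hormone genes went in both directions, and crypt EC replicate 1 differed from the other EC libraries in several. Of the 14 tested, 5 were higher (35.7%, against 34.3% of all genes tested) and 4 lower. Tac1, which encodes substance P, was at 6331, 4557, 4339.9 and 4335 in crypt EC and 5.31, 4.31, 19.6 and 5.26 in crypt epi (log2 fold change 9.22 ± 0.38 (SE), limma adjusted p = 4.16e-08). Ucn3, which encodes urocortin 3 (ENSMUSG00000044988, chromosome 13, 3940688 to 3945349 on mm10), was at 504, 812, 835 and 784 in crypt EC and 0.272, 0.0572, 0.0569 and 0.272 in crypt epi (log2 fold change 9.28 ± 0.16 (SE), limma adjusted p = 2.89e-10). Sct, which encodes secretin, was at 1280.4, 7219, 9171 and 7379 in crypt EC and 341, 391, 110.0 and 280.3 in crypt epi, with replicate 1 far below the others, and rose by 4.30 (4.95 without that library). Cartpt was at 1.72, 4.42, 5.62 and 7.9 in crypt EC and was listed at 0 in every crypt epi library, and Nmb rose by 1.31 at low levels (4.99 against 1.4).

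The 4 hormone genes that fell, 28.6% of those tested against 33.2% of all genes, were Gip, Gcg, Sst and Pyy. Gip, the incretin of K cells, was at 6.22, 2.43, 17.8 and 26.9 in crypt EC and 1844, 1925, 367 and 1603 in crypt epi (log2 fold change -6.82 ± 0.72 (SE), limma adjusted p = 2.22e-05). Gcg, which encodes glucagon-like peptides, was at 35.2, 0, 0.26 and 0.114 in crypt EC and 371, 181, 212 and 232 in crypt epi, so replicate 1 held nearly all of it among the EC libraries, and the log2 fold change of -6.49 became -7.75 without it. Sst, which encodes somatostatin, was at 5.33, 0, 0.0889 and 0.182 in crypt EC and 188, 125, 124 and 267 in crypt epi and likewise moved from -6.64 to -7.27. Pyy fell by 2.72 on the log2 scale. Ghrl (371, 193, 174 and 124 in crypt EC and 192, 59.8, 23.5 and 436 in crypt epi) and Cck (134, 60.3, 62.5 and 31.9 in crypt EC and 148, 87.7, 64.6 and 134 in crypt epi) overlapped between the groups and did not pass the test (log2 fold changes 0.91, adjusted p = 0.323, and -0.69, adjusted p = 0.157). Without crypt EC replicate 1 Cck passed (-1.04, adjusted p = 0.0185).

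**Figure D2:**
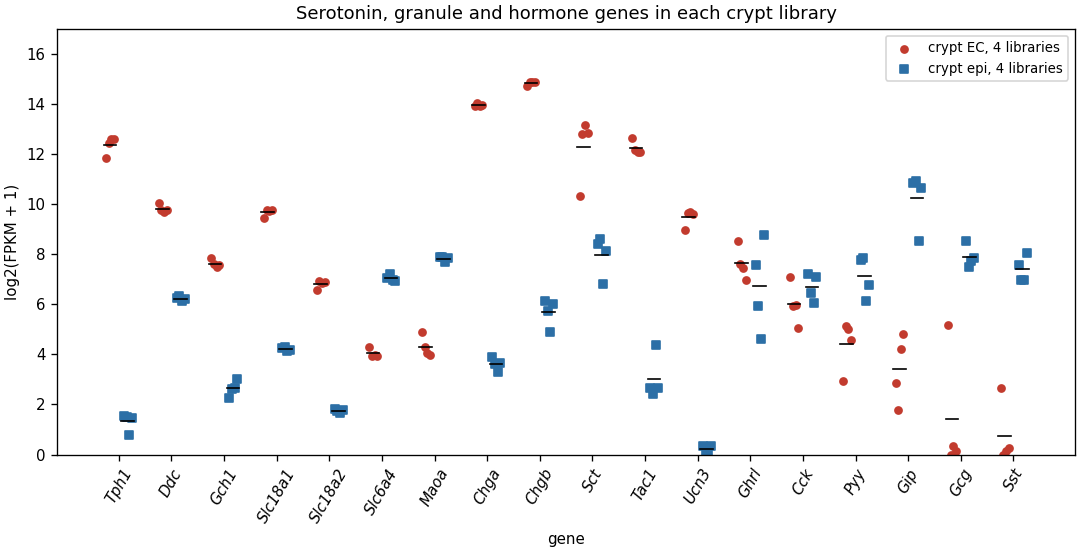
Points show log2(FPKM + 1) of 18 serotonin, granule and hormone genes in each of the 4 crypt EC and 4 crypt epi libraries, replicates 1 to 4 from left to right, and black lines show group means. Tph1, Chga, Chgb, Tac1 and Ucn3 were above all crypt epi libraries in every crypt EC library, Slc6a4 and Maoa were below, and crypt EC replicate 1 lay apart in Sct, Gcg and Sst.

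Transcription factors of the endocrine lineage were higher in crypt EC for 19 of 23 tested members, and 1 was lower (median 2.66). Lmx1a, a homeobox factor of EC cells, was at 337, 372, 373 and 384 in crypt EC and 0.424, 0.729, 0.647 and 0.385 in crypt epi (log2 fold change 7.90 ± 0.09 (SE), limma adjusted p = 3.28e-11). Neurod1 rose to 228 ± 20.1 against 2.82 ± 1.14 (5.96), Nkx2-2 to 110.2 ± 6.08 against 1.43 ± 0.67 (5.55), Rfx6 to 175 ± 9.09 against 4.91 ± 1.73 (4.95) and Pax4 to 65.6 ± 4.21 against 1.65 ± 1.01 (4.74). Pax6, which is used by several endocrine types, rose less (2.71, 23.6 against 2.95). Neurog3, the factor of the early progenitor, was at 11.8, 6.68, 6.04 and 8.48 in crypt EC and 6.98, 6.19, 2.81 and 5.93 in crypt epi and did not pass the test (0.53, adjusted p = 0.103). Fev, a factor of serotonin-producing cells, was at 188, 34.2, 21.8 and 22 in crypt EC and 0.108, 0.0283, 0.282 and 1.67 in crypt epi. Crypt EC replicate 1 was above the rest, and the log2 fold change of 4.94 became 4.23 without it. The member that fell was Isl1 (-1.36), at 1.21, 1.32, 1.3 and 1.74 in crypt EC and 8.5, 7.06, 1.67 and 5.85 in crypt epi, and Hhex, a factor of other endocrine types, was under the level needed for a test.

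Among factors of other epithelial fates 3 of the 28 tested members were higher and 19 lower (median -0.95). Atoh1, which sets the secretory fate and is kept by Paneth and goblet cells, was at 5.37, 5.93, 5 and 4.02 in crypt EC and 130.0, 139, 111 and 128 in crypt epi (log2 fold change -4.40 ± 0.11 (SE), limma adjusted p = 2.75e-09). Spdef, a goblet and Paneth factor, fell by 3.37 and Creb3l4 by 4.18 on the log2 scale, and Hnf4g, an enterocyte factor, by 2.04. Rest, the repressor of neuronal genes, was at 1.89, 1.13, 1.06 and 0.749 in crypt EC and 5.19, 5.19, 6.23 and 6.12 in crypt epi (-1.62). Hes1, the Notch target that opposes the secretory fate, was at 12.6, 2.06, 3.48 and 3.43 in crypt EC and 7.93, 4.91, 18.6 and 51.3 in crypt epi. Crypt EC replicate 1 stood at the level of crypt epi, and Hes1 did not pass the test (-1.51, adjusted p = 0.074) unless that library (-1.96, adjusted p = 0.0255) or crypt epi replicate 2 (-1.96, adjusted p = 0.0284) was left out. The 3 members that rose were the helix-loop-helix inhibitors Id1, Id2 and Id3. Id2 was at 116, 357, 344 and 349.7 in crypt EC and 58.8, 46.7, 34 and 51.4 in crypt epi (log2 fold change 2.48 ± 0.35 (SE), limma adjusted p = 0.000157), and Id1 (1.31) and Id3 (1.30) overlapped between the groups.

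Notch and Wnt pathway genes went in both directions, at shares near those of all genes tested (34.3% higher and 33.2% lower). Of Notch genes 4 of the 14 tested members were higher and 4 lower (28.6% each). Of Wnt genes 8 of the 21 tested members were higher and 5 lower (38.1% and 23.8%). The medians were 0.02 and -0.11, which were 0.43 and 0.37 with the same total in each library. Single members differed widely. The Notch ligand gene Dll1 fell (-1.71, 9.5 against 33.1) and Dll4 rose (1.15, 23.5 against 10), and Mfng, which modifies Notch with sugar, was at 9.67, 13.8, 12.4 and 11.2 in crypt EC and 0.832, 0.592, 0.582 and 0.591 in crypt epi (2.95). Of the secreted Wnt antagonists, Wif1 (ENSMUSG00000020218, chromosome 10, 121033960 to 121100650 on mm10) was at 34.4, 37.9, 34.6 and 37.4 in crypt EC and 0.0806, 0.113, 0.188 and 0.115 in crypt epi (log2 fold change 5.04 ± 0.10 (SE), limma adjusted p = 6.07e-10) and Sfrp5 rose by 2.09 (37.7 against 8.23). The receptor genes Fzd1 (3.20, 24.6 against 1.81) and Fzd6 (1.54) rose, and Fzd5, a Frizzled of crypt base cells, fell (-0.87). The Wnt target Axin2 was low in both groups (1.6 against 1.86) and did not pass the test (-0.15, adjusted p = 0.373), and Nkd1, another target, fell to 0.775 against 4.9 (-1.69).

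Stem cell genes were detected in crypt EC. Lgr5, the marker of cycling stem cells, was at 15.8, 13.2, 16.5 and 12.3 in crypt EC and 27.4, 35.2, 18.1 and 30.5 in crypt epi (log2 fold change -0.87 ± 0.19 (SE), limma adjusted p = 0.00248). Olfm4 was at 961 against 1385 (-0.56) and Lrig1 at 12.2 against 12.6 (0.00, adjusted p = 0.998). Of the 23 stem cell markers tested 4 were higher and 9 lower (median -0.15), and with the same total in each library 9 higher and 4 lower, with a median of 0.19. With the deposited values the shares were 17.4% and 39.1%, against 34.3% and 33.2% of all genes tested. The markers that rose by more than 2-fold were Hopx, at 589, 631, 619.9 and 614 in crypt EC and 145, 131, 123 and 144 in crypt epi (log2 fold change 2.17 ± 0.07 (SE), limma adjusted p = 7.64e-09), and Bmi1 (1.94, 46.1 against 11.5), which were described as markers of slowly cycling crypt cells.

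Genes of cell division were lower in crypt EC without exception among the mitosis genes, where 20 of 20 tested fell (median -1.84, range -2.17 to -1.09, background 33.2%). Mki67, a marker of cycling cells, was at 3.5, 3.02, 2.42 and 1.28 in crypt EC and 10.9, 11.2, 12.4 and 10.2 in crypt epi (log2 fold change -1.82 ± 0.20 (SE), limma adjusted p = 3.1e-05), and the mitotic cyclin gene Ccnb1 at 30.8, 20.3, 23.5 and 15.7 in crypt EC and 83.2, 102, 107 and 87.5 in crypt epi (-2.06). The summed level of this list in single crypt EC libraries was 19% to 34.6% of the crypt epi mean. Of DNA replication genes 26 of 27 fell (median -1.18), among them the helicase gene Mcm5 (-1.39) and the ribonucleotide reductase gene Rrm2 (-1.97), and Pola1 did not pass the test (0.31, adjusted p = 0.0893) unless crypt epi replicate 3 was left out (0.41, adjusted p = 0.0289). Among the brakes of the cycle, Cdkn1a, which encodes p21, was at 518, 906, 888 and 884 in crypt EC and 166, 176, 131 and 168 in crypt epi (log2 fold change 2.28 ± 0.18 (SE), limma adjusted p = 3.19e-06). Cdkn1c, which encodes p57, rose by 1.59, Btg1 by 1.45 and Btg2 by 1.42. Ccnd1 fell (-1.92, 10.4 against 42.4) and so did Cdkn2b (-1.69), an inhibitor of cyclin D kinases. In this list 10 of the 19 tested members were higher and 8 lower (52.6% and 42.1%, against 34.3% and 33.2% of all genes tested).

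Paneth, goblet, absorptive and tuft markers were mostly lower, and in these bulk libraries fewer cells of a type and less RNA per cell cannot be told apart. All 19 Paneth markers tested fell (median -4.67). The lysozyme gene Lyz1 was at 1281, 2196, 2016 and 1910.5 in crypt EC and 52248, 50270.0, 46357 and 49456 in crypt epi (log2 fold change -4.77 ± 0.17 (SE), limma adjusted p = 1.98e-08), and the summed Paneth markers of crypt EC libraries reached 3.15% to 4.42% of the crypt epi mean. All 20 goblet markers fell (median -4.19), to summed levels of 3.48% to 5.14%. The mucin gene Muc2 was at 1.71, 1.97, 0.713 and 0.983 in crypt EC and 209, 175, 141 and 175 in crypt epi (log2 fold change -6.25 ± 0.19 (SE), limma adjusted p = 6.79e-09), and Zg16, a granule lectin of goblet cells, at 373, 226, 31 and 55.7 in crypt EC and 18349.8, 15278, 13908 and 19760.3 in crypt epi (-7.23). The goblet gene Clca1 was at 40.6, 42.4, 3.3 and 6.46 in crypt EC and 3137, 3699, 2575 and 3125 in crypt epi (-7.65). Crypt EC replicate 3 was the lowest of its group in both, and without it the log2 fold changes were -6.62 for Zg16 and -7.03 for Clca1. Defa20 and Defa32, defensin genes of Paneth cells, moved likewise, from -6.64 to -5.48 and from -6.52 to -5.36. Defensin genes are near-identical, so the split of reads between them is uncertain. Defa20 and Defa32 were listed at the same values in every crypt EC library and in crypt epi replicates 1 and 3, so they are not separate measurements. The part of carried-over RNA or cells in these residual levels was not tested.

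Of 25 absorptive markers 18 fell and 1 rose (median -2.50). Alpi, the brush border phosphatase gene, was at 7.9, 40.9, 17.7 and 12.8 in crypt EC and 496, 609, 190.3 and 488 in crypt epi (-4.54), and Fabp1, a fatty acid binding protein gene, fell by 4.07 on the log2 scale. Sis (161 against 156, -0.01, adjusted p = 0.986), which encodes sucrase-isomaltase, and Apob (81.8 against 93.5, -0.18, adjusted p = 0.416) were at similar means in the groups and did not pass the test. Krt20, a keratin of differentiated cells, was the member that rose, at 463, 843, 829 and 835 in crypt EC and 335, 287, 289 and 307 in crypt epi (1.24). Of 17 tuft cell markers 10 fell and 1 rose. Dclk1 was at 1.1, 0.751, 1.52 and 0.583 in crypt EC and 17, 12.8, 6.28 and 10.7 in crypt epi (log2 fold change -2.62 ± 0.27 (SE), limma adjusted p = 1.85e-05), and the member that rose was the prostaglandin D synthase gene Hpgds (1.23, 18.1 against 7.13). The summed tuft markers of crypt EC, 50.2% to 86.7% of the crypt epi mean, are mostly Cd24a (193 against 216), which many crypt cells express.

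**Figure D3:**
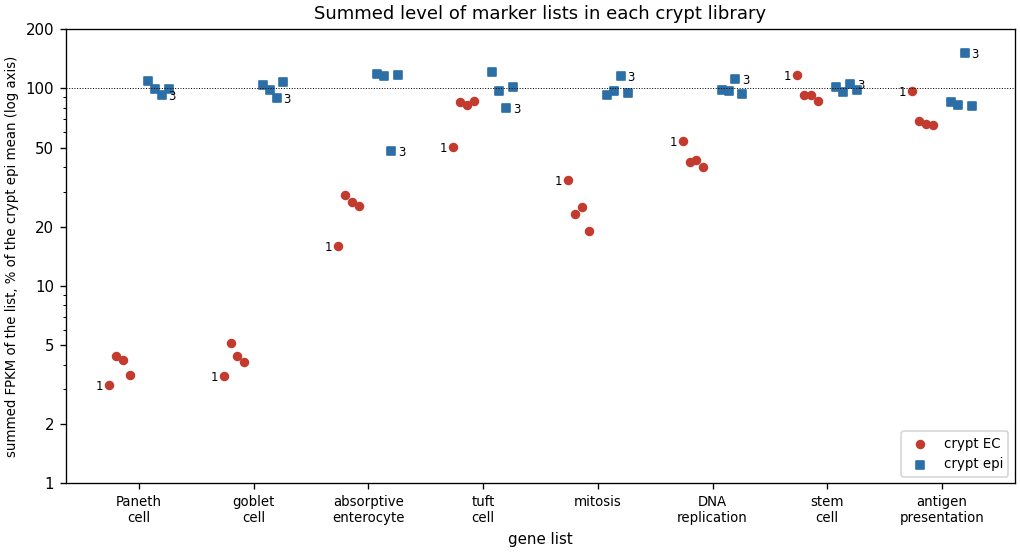
For 8 gene lists, points give the summed FPKM of all members in each crypt library as a percentage of the mean of the 4 crypt epi libraries (log axis), with crypt EC replicate 1 and crypt epi replicate 3 numbered. Paneth and goblet sums of crypt EC lie between 3.15% and 5.14%, stem cell sums between 86.5% and 117%. The stem cell sums of crypt EC are mostly Olfm4, which was lower than in crypt epi, and Hopx, which was higher.

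Marker lists of cells from outside the epithelium were mostly under the level needed for a test, with single genes far above it in crypt EC. The leukocyte gene Ptprc was at 0.441, 0.544, 0.531 and 1.09 in crypt EC and 0.814, 1.38, 0.494 and 0.514 in crypt epi, below that level, and among lymphocyte and plasma cell markers 3 of 15 reached it, none of which was called (limma). Their summed FPKM were 6.93 to 9.05 in crypt EC and 6.36 to 7.44 in crypt epi. Of 15 myeloid markers 7 were tested, of which 1 was higher and 4 lower (median -0.62), with sums of 145 to 162 in crypt EC and 47.9 to 79 in crypt epi. The higher one was C1qa, a subunit of complement C1q (ENSMUSG00000036887, chromosome 4, 136895917 to 136898803 on mm10), at 108, 127, 131 and 134 in crypt EC and 0.296, 0.0888, 0.133 and 0.141 in crypt epi (log2 fold change 6.76 ± 0.11 (SE), limma adjusted p = 1.87e-10). The lower ones were Itgam (-1.48), Cd14 (-1.44), Tyrobp (-0.62) and Cd68 (-0.52). The call of Cd68 was lost when crypt EC replicate 1, 2 or 4 or crypt epi replicate 1 or 2 was left out (adjusted p up to 0.131), and that of Tyrobp when crypt EC replicate 3 or crypt epi replicate 2 or 3 was (up to 0.0623). The neighbouring genes for the other C1q subunits, C1qb (0.0479 against 0.0638) and C1qc (0.0698 against 0.105), and the macrophage genes Csf1r (0.0632 against 0.164) and Adgre1 (0.037 against 0.036) were near 0 in both groups and not tested.

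Of 15 stromal and endothelial markers the 2 tested were higher in crypt EC, and the sums of the list were 155 to 236 in crypt EC and 5.58 to 8.86 in crypt epi. The intermediate filament gene Vim was at 197, 165, 133 and 146 in crypt EC and 2.23, 2.69, 1.74 and 3.19 in crypt epi (5.54) and the adhesion gene Pecam1 at 33, 16.8, 16.9 and 17 in crypt EC and 1.17, 0.84, 0.751 and 0.788 in crypt epi (3.48). The fibroblast gene Col1a1 (0.491 against 0.515) and the endothelial gene Cdh5 (0.0501 against 0.182) were under 1 and not tested. Of 12 enteric neuron and glia markers the 3 tested were higher, namely Ret (3.47), Tubb3 (2.23, 5.09 against 0.296) and Elavl4 (1.29, 1.86 against 0.139), with sums of 25.7 to 29 in crypt EC and 1.7 to 2.31 in crypt epi. The glial gene S100b (0.468 against 0.288) was under 1. Of 4 red blood cell markers tested 3 were higher, 1 of them without overlap between the groups, with sums of 19.7 to 72.3 in crypt EC and 1.64 to 27 in crypt epi. That gene was Hbb-bs, at 5.72, 11.6, 18.5 and 13.7 in crypt EC and 0.563, 0.502, 2.23 and 5.1 in crypt epi (2.26), and Hba-a1 (2.38) and Hba-a2 (2.60), near-identical copies whose split of reads is uncertain, overlapped. The part of other cells in these values was not tested.

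Voltage-gated sodium and calcium channel genes were higher in crypt EC for 13 of 14 tested members (median 1.89, background 34.3%). The sodium channel gene Scn3a was at 335, 270.4, 259.6 and 301 in crypt EC and 2.49, 1.96, 2.93 and 1.92 in crypt epi (log2 fold change 6.46 ± 0.12 (SE), limma adjusted p = 4.07e-10). Scn2a (3.62, 12.8 against 0.135) and Scn8a (2.26, 9.61 against 1.2) also rose, at lower levels per length, and Scn9a was at 0.955 against 0.125 and not tested. Of the calcium channels the P/Q-type gene Cacna1a was at 48.2, 41.3, 43 and 47.6 in crypt EC and 1.35, 2.15, 1.35 and 1.92 in crypt epi (4.11), the T-type gene Cacna1h rose by 4.04 (22.9 against 0.457) and the L-type gene Cacna1d by 1.67 (4.24 against 0.628). The auxiliary subunit gene Cacna2d1 rose by 3.79 and Cacna2d2, at low levels, fell (-1.05, 0.202 against 1.51).

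Of the 21 potassium and pacemaker channel genes tested 14 rose and 5 fell (66.7% and 23.8%, against 34.3% and 33.2% of all genes tested). Kcnh6, an ERG-type channel, was at 100, 133, 125 and 137 in crypt EC and 7.47, 7.94, 3.01 and 5.9 in crypt epi (log2 fold change 4.20 ± 0.24 (SE), limma adjusted p = 3.09e-07), Kcnb2 rose by 4.01 and the calcium-activated channel subunit gene Kcnmb2 by 3.40. The pacemaker channel genes Hcn3 (1.93, 4.05 against 0.32) and Hcn4 (1.19) rose at low levels. The members that fell were Kcnn4 (-1.60) and Kcne3 (-1.21), channel genes of transporting epithelium, and Kcnk1 (-0.63), Kcnk5 (-2.53) and Kcnk6 (-3.59).

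Among TRP and mechanosensitive channels 9 of 20 could be tested, of which 4 were higher and 1 lower. The shares were 44.4% and 11.1%, against 34.3% and 33.2% of all genes tested. The irritant receptor Trpa1 was at 213, 248, 227 and 243 in crypt EC and 0.0999, 0.193, 0 and 0 in crypt epi (log2 fold change 7.77 ± 0.10 (SE), limma adjusted p = 3.28e-11). Trpm2, a channel opened by oxidants and warmth, was at 34.5, 95.9, 102 and 124 in crypt EC and 0.251, 0.537, 0.495 and 0.426 in crypt epi (5.84), and Trpc4 rose by 4.17 (19.4 against 0.118). Trpm4 fell (-1.28, 23.2 against 57.8). The force-gated channel gene Piezo2 was at 0.289, 0.674, 0.245 and 0.207 in crypt EC and 0.159, 0.169, 0.207 and 0.209 in crypt epi, under the level needed for a test. Of the ligand-gated channels 7 of the 10 tested members were higher and 1 lower (70% and 10%). The GABA receptor subunits Gabrb2 (2.67, 6.13 against 0.0723) and Gabre (1.94) rose and the ATP receptor gene P2rx4 fell (-1.48, 57.4 against 162).

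Receptors coupled to G proteins rose for 13 of 16 tested members and fell for 3 (median 2.46). The somatostatin receptor gene Sstr1 was at 127, 188, 181 and 192 in crypt EC and 0.934, 0.883, 0.119 and 0.51 in crypt epi (log2 fold change 6.76 ± 0.20 (SE), limma adjusted p = 5.9e-09) and Sstr5 at 37.1, 50, 45.5 and 48.1 in crypt EC and 1.3, 1.27, 0.785 and 1.55 in crypt epi (log2 fold change 4.38 ± 0.14 (SE), limma adjusted p = 1.08e-08). Sstr2 (1.88) and Sstr3 (1.63) rose at lower levels. The GLP-1 receptor gene Glp1r was at 3.59, 42.9, 50 and 50.9 in crypt EC and 0.217, 0.543, 0.455 and 0.604 in crypt epi. Replicate 1 was far below the other EC libraries, and the log2 fold change of 4.22 became 5.08 without it. Npy1r (4.09, 21.6 against 0.242), Galr1 (3.46, 18 against 0.464) and Gpr142 (3.01), a receptor for aromatic amino acids, rose. Ffar2, a receptor for short-chain fatty acids, was at 263, 201, 229 and 230.4 in crypt EC and 15, 13.9, 16.9 and 14.7 in crypt epi (3.84), while the receptors Ffar4 for long-chain fatty acids (-1.47, 6.71 against 20.2), Gpr35 (-1.06) and Vipr1 (-2.07) fell.

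Downstream of these receptors 19 of the 31 tested members were higher and 4 lower (61.3% and 12.9%, against 34.3% and 33.2% of all genes tested). The Go subunit gene Gnao1 rose to 49.8 ± 7.36 against 1.03 ± 0.0695 (4.64), Gnaz by 3.36 and the gamma subunit gene Gng4 to 104 against 3.23 (4.71). Rgs7, which shortens Gi and Go signals, was at 26.3, 25.4, 28.4 and 27.7 in crypt EC and 0.661, 0.191, 0.133 and 0.541 in crypt epi (4.36). Gna11, of the Gq family, fell to 71.4 against 302 (-2.06). The calcium-stimulated adenylyl cyclase gene Adcy8 rose by 3.01, the regulatory subunit gene of protein kinase A Prkar1b by 3.67 (69 against 4.62) and the cyclic AMP-bound exchange factor gene Rapgef4 by 2.64.

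Genes better known from neurons made up 3 further groups. Among RNA-binding and splicing factors 10 of the 18 tested members were higher and 6 lower. The shares were 55.6% and 33.3%, against 34.3% and 33.2% of all genes tested, so the share of lower members was near that of all genes. Celf3 (ENSMUSG00000028137, chromosome 3, 94478295 to 94492198 on mm10), a factor of neurons, was at 189.6, 233, 241 and 248 in crypt EC and 4.62, 6.07, 1.86 and 5.31 in crypt epi (log2 fold change 5.46 ± 0.25 (SE), limma adjusted p = 8.89e-08). Celf2 (2.98), Celf6 (2.67), Srrm3 (1.96), which promotes microexons, and Rbfox3 (1.95) rose, while Srrm4, Nova1 and Nova2 were under the level needed for a test. The members that fell included Mbnl1 (-1.21), Mbnl2 (-0.80) and Mbnl3 (-1.41), regulators of splicing that many tissues share. Among cytoskeletal genes 11 of the 15 tested members were higher and 2 lower, with Map1b at 157, 159, 176 and 176 in crypt EC and 2.78, 1.79, 0.824 and 2.35 in crypt epi (5.89), the motor gene Kif1a, which carries dense-core vesicles, at 18.9 against 0.28 (3.96) and Tuba1a at 185 against 14.1 (3.63). Dclk1, above, and Stmn1 (-1.07), which is high in dividing cells, fell. Among adhesion and guidance genes 11 of the 20 tested members were higher and 2 lower (55% and 10%). Amigo2 was at 509, 807, 695 and 677 in crypt EC and 0.982, 0.778, 0.4 and 0.638 in crypt epi (log2 fold change 8.62 ± 0.15 (SE), limma adjusted p = 2.89e-10), Cntnap2 rose by 3.25 and Nrcam by 2.46, and Efnb2 (-1.05) and L1cam (-0.68) fell. The call of Efnb2, at a mean of 0.582 against 2.85, was lost when crypt EC replicate 2, 3 or 4 was left out.

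Secreted and growth factor genes included some of the largest rises. The alpha-fetoprotein gene Afp (ENSMUSG00000054932, chromosome 5, 90490737 to 90508907 on mm10) was at 619.8, 1659, 1634 and 1674 in crypt EC and 0.0184, 0.0388, 0.116 and 0.041 in crypt epi (log2 fold change 10.27 ± 0.29 (SE), limma adjusted p = 4.78e-09), with replicate 1 lowest among the EC libraries. Its neighbour Alb (ENSMUSG00000029368, chromosome 5, 90460897 to 90476602 on mm10), which encodes albumin, was at 12, 18.4, 20.1 and 22.2 in crypt EC and 0.262, 0.0985, 0.098 and 0.187 in crypt epi (4.01). Of 11 liver-type secreted proteins tested 8 rose and 2 fell, among them Ambp (359.8 against 0.783, 7.61), Gpx3 (1382 ± 589 against 8.55 ± 3.41, 7.12), an extracellular glutathione peroxidase, and the transferrin gene Trf (2.95), while Apoe (-0.57) and Apoh (-0.76) fell. Igfbp2, which binds insulin-like growth factors (ENSMUSG00000039323, chromosome 1, 72824503 to 72852474 on mm10), was at 185, 284, 286 and 254 in crypt EC and 0, 0.142, 0.0532 and 0.0702 in crypt epi (log2 fold change 7.87 ± 0.14 (SE), limma adjusted p = 3.22e-10), and Igfbp4 at 254 against 18.1 (3.80).

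Of growth factors and their receptors 16 of the 30 tested members were higher and 7 lower (53.3% and 23.3%, against 34.3% and 33.2% of all genes tested). The GDNF-family coreceptor genes Gfra3 (228, 202, 222 and 227 in crypt EC and 9.92, 9.66, 4.39 and 8.64 in crypt epi, 4.64) and Gfra1 (2.97) and their signalling receptor Ret (14.4 against 0.388, 3.47) rose together. Egfr rose to 41.5 against 9.56 (2.03) while its partner Erbb2 fell to 18 against 46.1 (-1.31), and Vegfa rose to 45.2 against 7.4 (2.46). The receptor gene Met (-1.06) and the ligand genes Kitl (-1.46) and Areg (-1.63) fell.

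Nuclear respiratory chain genes and fatty acid oxidation and citric acid cycle genes were lower as groups. Glycolysis genes went in both directions, with exchanges between isoforms. Of the nuclear genes of the respiratory chain 27 of 29 fell (median -0.96), with Cyc1 at 424, 381, 383 and 356 in crypt EC and 969, 1029.9, 1003 and 954 in crypt epi (-1.36), and with the same total in each library 20 were lower (median -0.42). Cycs, which encodes cytochrome c, was the member that rose (0.68, 268 against 166). Of fatty acid oxidation and citric acid cycle genes 19 of 24 fell (median -0.97, 14 lower with the same total), among them the citrate synthase gene Cs (-1.38), Mdh2 (-1.32) and the gluconeogenic gene Pck1 (-3.08). Transcripts of the mitochondrial genome had a median of -0.59 with 11 of 13 lower, and 0 lower and a median of -0.05 with the same total. They took 2.95% to 4.32% of the total in crypt EC and 3.24% to 4.08% in crypt epi.

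Among glycolysis genes 9 of the 26 tested members were higher and 12 lower (34.6% and 46.2%, against 34.3% and 33.2% of all genes tested). Their median of -0.32 is smaller than the shift of all genes with the same total in each library (0.02 to 0.50). The direction of the group may therefore rest on the scaling. The hexokinase gene Hk2 was at 51, 38.2, 44.4 and 49.4 in crypt EC and 11.6, 11.5, 9.97 and 11.1 in crypt epi (log2 fold change 1.95 ± 0.10 (SE), limma adjusted p = 2.17e-07), and Hk1 rose by 1.03. Among phosphofructokinases Pfkl rose (1.0, 100 against 49.7) and Pfkp fell (-2.06, 40.9 against 172). The lactate dehydrogenase gene Ldha was at 851, 825, 896 and 827 in crypt EC and 2178, 2226, 2383 and 2133 in crypt epi (-1.39), and Pgk1 (-1.33) and the lactate transporter gene Slc16a1 (-1.62) fell. Of the kinases that close pyruvate dehydrogenase, Pdk3 was at 280.2, 282, 278 and 285 in crypt EC and 30.9, 28.1, 32.4 and 31.2 in crypt epi (3.16) and Pdk1 fell (-1.35).

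Of ribosome biogenesis genes 22 of 25 fell by small amounts (median -0.65), and with the same total in each library 7 were lower and 2 higher (median -0.12). Myc, a driver of this programme, fell to 20.8 against 57.3 (-1.42). Genes of protein folding in the endoplasmic reticulum and of the unfolded protein response had 16 of 24 lower (median -0.53), and with the same total 9 higher and 9 lower, with a median of -0.00. Their sensors differed. Atf6 (ENSMUSG00000026663, chromosome 1, 170704674 to 170867771 on mm10) was at 210.2, 163, 145 and 153 in crypt EC and 10.5, 11.1, 9.53 and 9.8 in crypt epi (log2 fold change 3.89 ± 0.11 (SE), limma adjusted p = 6.1e-09), Ern2, the sensor of goblet cells, fell to 12.8 against 112 (-3.13) and Ern1 did not pass the test (0.03, adjusted p = 0.907). Ddit3 rose (1.16, 85.5 against 36.3) with overlap between the groups, while Edem1 (-2.18) and Manf (-1.27) fell.

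Antigen presentation genes had 9 of 16 lower and 2 higher. The proteasome subunit genes Psmb8 (-1.15, 226 against 499) and Psmb9 (-1.35), and Tap1 (-1.53) fell, while the class I gene H2-D1 rose (0.52, 1418 against 993). Of class II genes, H2-Aa was at 194, 26.5, 28 and 24.6 in crypt EC and 122, 112, 476 and 115 in crypt epi, which overlapped because of crypt EC replicate 1. Its log2 fold change of -1.90 became -2.60 without that library, and that of Cd74 went from -2.08 to -2.71. The call of H2-Aa was lost when crypt EC replicate 2, 3 or 4 or crypt epi replicate 3 was left out (adjusted p = 0.0906 without the last of these).

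Of immediate early and heat shock genes, which handling and dissociation of tissue can raise, 14 of 18 were higher in crypt EC (median 0.84). Jun (1.27, 778 against 334), Egr1 (1.16, 428 against 196) and Nr4a1 (2.11, 50.9 against 11.6) rose, and both groups expressed them. The small heat shock gene Hspb1 was at 4.94, 83, 70.2 and 78 in crypt EC and 0.447, 0.431, 0.129 and 0.274 in crypt epi, with replicate 1 far below the other EC libraries (4.96, and 5.89 without it). The part of handling in the other differences was not tested.

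**Figure D4:**
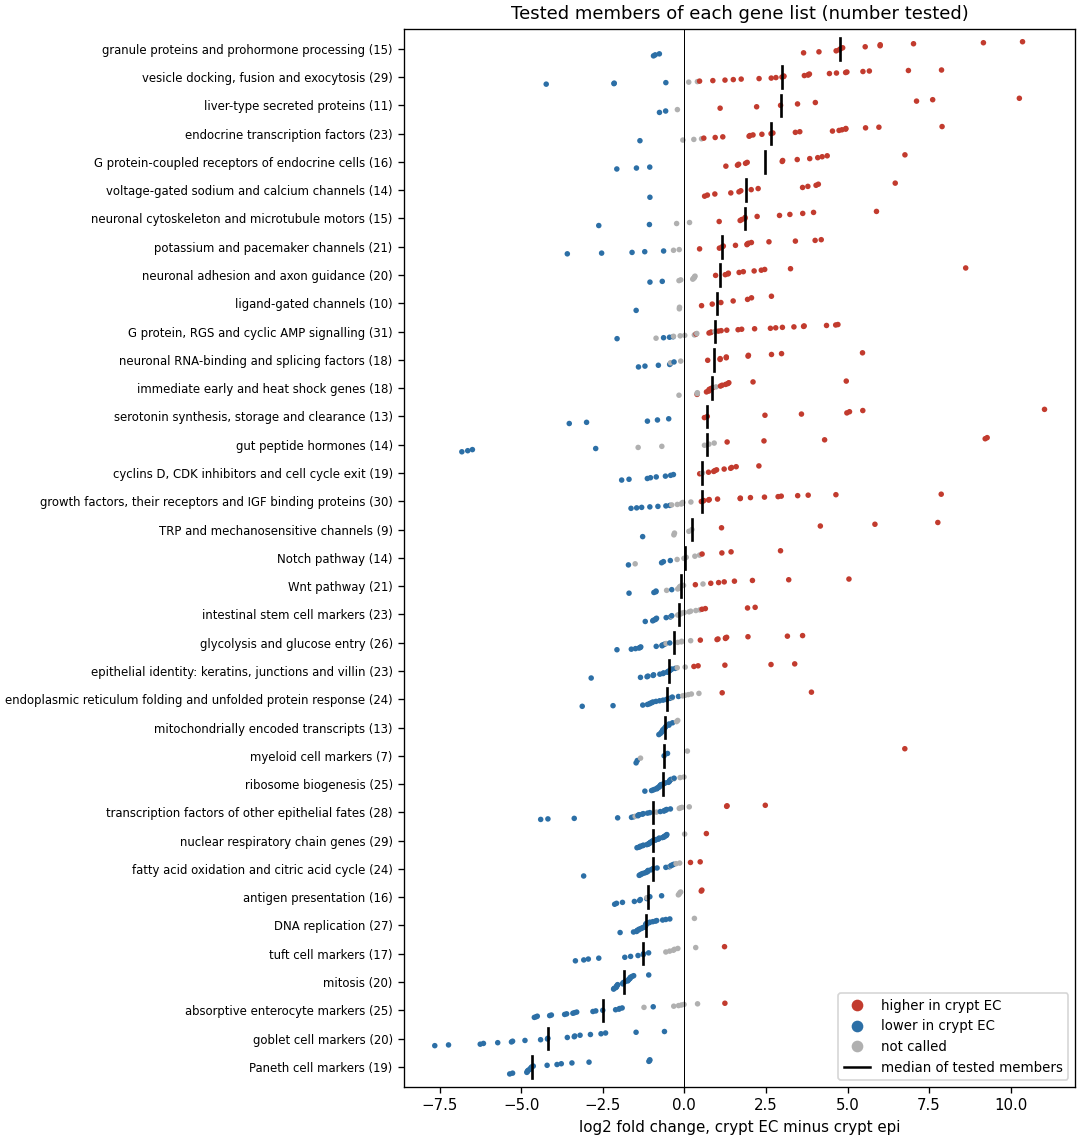
Each point is a tested member of a gene list at its log2 fold change (crypt EC minus crypt epi), coloured by the limma call, and black bars are list medians, for lists with at least 5 tested members, ordered by median. Granule genes have the highest median (4.78) and Paneth markers the lowest (-4.67).

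The same contrast in the villus shows where the crypt difference differs. The interaction, tested over all 16 libraries as the crypt difference minus the villus difference, was called for 6050 of 14089 genes (42.9%). Villus epi replicate 2 stood apart from its group, and without it 8639 genes were called. Within the villus, Y-linked transcripts were high in EC replicates 1, 2 and 3 and in epi replicates 1 and 2. The part of this split in the interaction was not tested. Igfbp2 had means of 252 and 0.0664 in the crypt EC and epi libraries and 0.576 and 0.349 in the villus EC and epi libraries, so the rise in EC cells was seen in the crypt (interaction 7.63 ± 0.24 (SE), limma adjusted p = 3.56e-11). Tac1 (4891 and 8.61 in the crypt EC and epi libraries and 1309.6 and 14.4 in the villus EC and epi libraries, interaction 2.80 ± 0.45 (SE), limma adjusted p = 0.000148) and Ucn3 (734 and 0.165 in the crypt EC and epi libraries and 286 and 2.15 in the villus EC and epi libraries, interaction 2.76 ± 0.24 (SE), limma adjusted p = 3.49e-07) had larger differences in the crypt. The interaction of Tph1 was 2.67 ± 0.43 (SE) (limma adjusted p = 0.000142), with means of 5392 and 1.57 in the crypt EC and epi libraries and 15282 and 50.3 in the villus EC and epi libraries, so that the larger crypt difference came with the lower EC level. A positive interaction was not particular to these genes. All 12 largest rises had one, from 0.54 (Afp, not called) to 7.63, with Chga at 2.62, Rab3c at 2.50 and Chgb at 1.72. Chga had means of 16042 and 11.3 in the crypt EC and epi libraries. In the villus EC and epi libraries its means were 14338 and 68.4, so its larger crypt difference came with the lower epi level.

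The other genes that the naming rule took for a more positive crypt difference had their highest means in villus epi. Btnl1, a butyrophilin-like protein that villus epithelium shows to lymphocytes, had means of 98.7 and 76 in the crypt EC and epi libraries and 1.65 and 279 in the villus EC and epi libraries (interaction 6.94 ± 0.71 (SE)). Clca4b, Lect2, H2-Aa and Cyp2c55 had interactions between 5.97 and 6.08. In the opposite direction, Gcg had means of 8.9 and 249 in the crypt EC and epi libraries and 9.44 and 1.61 in the villus EC and epi libraries (interaction -7.34 ± 1.64 (SE), limma adjusted p = 0.00207) and Sst of 1.4 and 176 in the crypt EC and epi libraries and 15.4 and 21.8 in the villus EC and epi libraries (-6.55 ± 1.92 (SE), limma adjusted p = 0.0122). In the villus the SDs were above the means for Gcg in EC (13.5) and for Sst in EC (29) and epi (42.2). These villus means therefore do not describe every library. Agr2, a disulfide isomerase of mucus-making cells, was lower in EC than in epi in the crypt and higher in the villus, with means of 814 and 6479.9 in the crypt EC and epi libraries and 5039 and 565 in the villus EC and epi libraries (interaction -6.37 ± 0.49 (SE), limma adjusted p = 1.16e-07). Habp2 (-6.75 ± 0.49 (SE)) and Clps (-6.18 ± 0.28 (SE)), which encodes colipase, had the same pattern. Defa-ps10 (-5.99 ± 0.55 (SE)) was listed at 0 in all villus libraries.

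**Figure D5:**
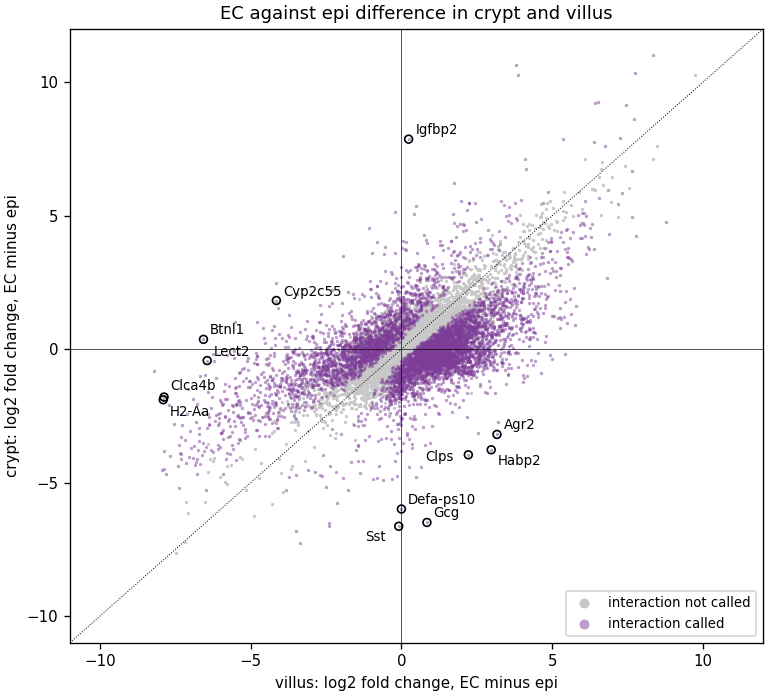
Each point is 1 of the 14089 genes tested for the interaction, with the EC minus epi difference of mean log2(FPKM + 1) in the villus on the horizontal axis and in the crypt on the vertical axis. Points on the dotted line have equal differences, purple points were called for the interaction, and the 12 labelled genes have the largest interactions by the naming rule, from -7.34 (Gcg) to 7.63 (Igfbp2).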

How the data were processed

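RNA of the 8 crypt libraries (4 groups of 4 libraries in the series) was prepared as full-length cDNA with SMART-Seq HT and Nextera XT, per the labels' protocols. The submitters' processing notes list bcl2fastq 2.20, kallisto, sleuth and build mm10. The authors deposited gene-level FPKM, whose scaling and annotation release the sources used here do not give. No rescaling was applied, and 1 was added to each value before taking log2. Genes with at least 1 FPKM in at least 4 of 8 libraries entered limma (version 3.58.1, R 4.3.3; linear model with moderated variance and a trend, two-sided, Benjamini-Hochberg over all tested genes, called below 0.05), in a fit of the 8 crypt libraries, and the interaction in a fit of all 16. A fit of all 16 for the crypt contrast is an alternative, because villus epi replicate 2 stands apart. The fit was tested on simulated data, drawn independently for each library from the crypt epi means and spreads. The simulation held no library that stands apart and no shift in scaling, so it does not cover these features of the data.

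The members, the 41 gene lists, the tests and the naming rule were chosen with earlier results of these data known. The rule took the 12 largest rises and 12 largest falls among called, non-overlapping genes with a mean of at least 5 and a name, up to 4 called members per list and direction, members against their list's direction, 6 interaction genes each way, and 11 marker genes, and the text names part of these and of the lists' other members. Where a symbol had more than 1 row, the row with the higher mean was used. Positions are from GENCODE vM21 (mm10), matched by Ensembl identifier for 19944 of 20072 genes, and promoters from RefSeq (GRCm38.p6). Plots used Python 3.11.15 and its matplotlib 3.10.9. Alternatives were other pseudocounts, filters and scalings, robust estimation, replicate blocks and left-out libraries, and, added after seeing the data, the 6 libraries with low Y-linked transcripts, the Y-linked level (high or low) as a covariate and no block over 6 libraries. Results for some genes are not reported here.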

Additional observations from a re-analysis of the deposited data

Results flagged for a closer look

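Within each crypt group of 4 libraries, the gap of the highest or lowest library to its nearest neighbour was divided by the range of the group. This ratio was above the 95% critical value of Dixon's test for 4 values in 74 of 400 groups with a highest value of at least 5 FPKM, over the tested genes named here (18.5%). For independent normal values chance gives about 1 in 20. The genes were named with their values known and share the same libraries, so 1 in 20 is not the rate to expect here. Crypt EC replicate 1 was the library apart in 53 of the 74 groups and crypt epi replicate 3 in 13. These are the libraries with high Y-linked transcripts, and the part of sex in their values was not tested.

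Crypt EC replicate 1 was below the other EC libraries for genes of secretion and secreted proteins, with Chgb at 27308 against 30109 to 30568 (ratio 0.859), Slc18a1 at 697 against 856 to 874 (ratio 0.903), Snap25 at 173 against 283 to 305 (ratio 0.831), Stx1a at 32.4 against 35 to 35.4 (ratio 0.855), Syt5 at 49.9 against 77.2 to 80.8 (ratio 0.882), Ucn3 at 504 against 784 to 835 (ratio 0.846), Clps at 144 against 218 to 227 (ratio 0.893) and Agr2 at 248 against 925 to 1056 (ratio 0.837). It was also below them for receptors, with Glp1r at 3.59 against 42.9 to 50.9 (ratio 0.83), Galr1 at 3.86 against 22.2 to 23.2 (ratio 0.947), Npy1r at 9.49 against 25.5 to 25.7 (ratio 0.982) and Sstr1 at 127 against 181 to 192 (ratio 0.842). Among secreted liver-type proteins and lipoproteins it had Afp at 619.8 against 1634 to 1674 (ratio 0.962), Ambp at 169 against 415 to 435 (ratio 0.923), Gpx3 at 500.0 against 1654 to 1718 (ratio 0.948), Trf at 20.7 against 38.4 to 40.7 (ratio 0.884) and Apoa1 at 115 against 509 to 532 (ratio 0.943). Id genes, brakes of the cell cycle and early response genes were low as well, with Id1 at 42.5 against 156 to 178 (ratio 0.839), Id2 at 116 against 344 to 357 (ratio 0.948), Id3 at 130.5 against 403 to 449 (ratio 0.858), Cdkn1a at 518 against 884 to 906 (ratio 0.944), Btg2 at 274 against 437 to 469 (ratio 0.839), Egr1 at 259.7 against 469.8 to 503 (ratio 0.862), Nr4a1 at 28.4 against 57 to 59.5 (ratio 0.92) and Hspb1 at 4.94 against 70.2 to 83 (ratio 0.836). Among markers of differentiated cells and other genes it had Cd24a at 115 against 208 to 224 (ratio 0.851), Ern2 at 5.46 against 14.3 to 15.9 (ratio 0.841), Krt20 at 463 against 829 to 843 (ratio 0.964), Krt7 at 244 against 618 to 650.1 (ratio 0.92), Nt5e at 11.3 against 120.2 to 132 (ratio 0.904), Pfkp at 29.8 against 44.1 to 45.4 (ratio 0.914), Pgc at 38.9 against 79.1 to 83.9 (ratio 0.895), Sis at 60.3 against 189 to 202 (ratio 0.907) and Tuba1a at 105 against 204 to 218 (ratio 0.876).

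The same library was above the others for hormones and factors, with Gcg at 35.2 against 0 to 0.26 (ratio 0.993), Sst at 5.33 against 0 to 0.182 (ratio 0.966), Tac1 at 6331 against 4335 to 4557 (ratio 0.889), Fev at 188 against 21.8 to 34.2 (ratio 0.925), Hes1 at 12.6 against 2.06 to 3.48 (ratio 0.866) and Hnf4g at 33.4 against 25.9 to 26.6 (ratio 0.91). Stem cell and cycle genes were higher too, with Olfm4 at 1337 against 787 to 861 (ratio 0.865), Lrig1 at 23.1 against 7.71 to 9.97 (ratio 0.853) and Ccnd1 at 13.2 against 9.2 to 9.88 (ratio 0.832). Antigen presentation genes were higher in it, with Cd74 at 629 against 101 to 115 (ratio 0.974), H2-Aa at 194 against 24.6 to 28 (ratio 0.98), Psmb8 at 312 against 184 to 206 (ratio 0.834), Psmb9 at 106 against 59.2 to 65.9 (ratio 0.856) and Tap1 at 22.5 against 8.75 to 10.9 (ratio 0.845). The remaining genes with a high value in it were Cd14 at 20.2 against 4.98 to 6.47 (ratio 0.902), Fzd6 at 6.1 against 4.59 to 4.84 (ratio 0.838), Gabrb2 at 10.1 against 4.58 to 5.02 (ratio 0.922), Pecam1 at 33 against 16.8 to 17 (ratio 0.983) and Slc6a4 at 18.8 against 14.2 to 14.6 (ratio 0.918).

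Crypt epi replicate 3 was below the other crypt epi libraries with Apoa1 at 428 against 1869.8 to 2039 (ratio 0.895), Areg at 1.88 against 5.16 to 5.81 (ratio 0.834), Btg2 at 92.1 against 174 to 179 (ratio 0.938), Dll1 at 27.4 against 34.5 to 35.5 (ratio 0.876), Fabp1 at 1224 against 3840.3 to 4174 (ratio 0.887) and Maob at 70.7 against 133 to 142 (ratio 0.865), and above them with Cd14 at 45.1 against 17.9 to 20.1 (ratio 0.92), Cd74 at 1859 against 490.1 to 546 (ratio 0.959), H2-Aa at 476 against 112 to 122 (ratio 0.972), Psmb8 at 661 against 439.5 to 455 (ratio 0.931), Psmb9 at 245 against 164 to 171 (ratio 0.913), Spr at 74.9 against 65.4 to 66.7 (ratio 0.864) and Tac1 at 19.6 against 4.31 to 5.31 (ratio 0.934). Apoa1 and Btg2 were low and Cd14, Cd74, H2-Aa, Psmb8, Psmb9 and Tac1 were high in both libraries that stood apart. Of the other libraries, crypt EC replicate 4 had Cacna1h at 24.7 against 22.2 to 22.4 (ratio 0.928) and Fxyd6 at 281 against 301 to 303 (ratio 0.91), crypt EC replicate 2 had Mbnl1 at 26.1 against 22.9 to 23.3 (ratio 0.89), crypt epi replicate 1 had Prkar1b at 2.76 against 5.14 to 5.39 (ratio 0.906), crypt epi replicate 2 had Pfkl at 60.6 against 45.4 to 46.8 (ratio 0.908) and Retnlb at 295 against 445 to 475 (ratio 0.837), and crypt epi replicate 4 had Efnb2 at 7.12 against 1.3 to 1.5 (ratio 0.966) and Trf at 5.04 against 2.9 to 3.16 (ratio 0.878).

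The EC minus epi difference was not the same in crypt and villus for the genes listed in this paragraph (limma, adjusted p below 0.05). Apart from Tac1, Ucn3 and Tph1, the naming rule took these genes from those that passed this test, so that they pass was fixed by the rule. The crypt minus villus difference of log2 values was positive for Igfbp2 (7.63), Tac1 (2.80), Ucn3 (2.76), Tph1 (2.67), Btnl1 (6.94), Clca4b (6.08), Lect2 (6.02), H2-Aa (6.01) and Cyp2c55 (5.97), and negative for Gcg (-7.34), Sst (-6.55), Agr2 (-6.37), Habp2 (-6.75), Clps (-6.18) and Defa-ps10 (-5.99).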

How the results depend on the processing

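Of the genes higher and lower in crypt EC (4476 and 4334), leaving out single libraries gave 4190 to 4475 and 4041 to 4416, and at least 2-fold 1958 to 2035 and 1485 to 1674. With the same total in each library 7654 and 2050 genes were called, and at least 2-fold 3446 and 829, where the rescaling itself shifts every gene. The fit of all 16 libraries, which shares 1 spread with villus epi replicate 2, called 3264 and 2824, and without that library 4703 and 4291. A pseudocount of 5 shrinks folds of low genes and left 1048 and 1018 at least 2-fold. Median-ratio scaling called 4054 and 4785, a filter at 5 FPKM 3285 and 3786 and no filter 5550 and 4487. Same-numbered libraries of the groups did not deviate together (correlations of deviations -0.28, 0.13, -0.12 and -0.14), nor did every library correlate best with its own number, so the numbers were not taken to pair samples. With the replicate block by title numbers 4270 and 4129 genes were called, and by library number over 6 libraries 3556 and 3463 (4002 and 3854 in these libraries without it). The interaction was called for 5546 to 8639 genes without single libraries, and for 5835 with the replicate block. Of the genes named here and called in the fit of 8 libraries, none changed sign under any alternative run, while Apob, Axin2, Cd24a, Ern1, Ghrl, Lect2, Lrig1, Sis and Syt7, which were not called, did under at least 1. Calls of these genes were lost for 17 with the same total, 12 in the fit of 16 and 18 in the block over 6 libraries. The fit of 16 lost Apoh, Btg2, Btnl1, Cd68, Cpd, Egr1, Erbb2, Nucb2, Pcbd1, Rab27a, Scg2 and Spr, and the Neurog3 call was gained with either replicate block. The depth of the libraries is unknown, so no limit on undetected transcripts can be given.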

Other observations

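Genes outside the lists, picked here after their values were seen, were higher in crypt EC. Gstt1, a glutathione transferase gene, averaged 1996 ± 119.8 against 56.2 ± 8.95 FPKM (mean ± SD of 4 libraries, a log2 difference of 5.14), and the prion protein gene Prnp at 577 ± 84.2 against 11.6 ± 2.65 (5.53). Fxyd6, a regulator of the sodium pump, was at 297 against 1.21 (7.11) and Bex2 at 556 against 4.5 (6.68). The genes of 2 secreted regulators rose as well, with Pappa2, a protease that cuts insulin-like growth factor binding proteins, at 120.5 against 0.634 (6.21) and Tnfrsf11b, which encodes osteoprotegerin, at 87.1 against 0.412 (5.98). The ectonucleotidase gene Nt5e was at 11.3, 120.2, 126 and 132 in crypt EC and 0.74, 0.565, 0.754 and 0.461 in crypt epi (5.45), with crypt EC replicate 1 lowest (6.29 without it). Pgc, which encodes the stomach protease precursor progastricsin, was at 70.9 against 0.946 (5.21). The limma adjusted p ranged from 2.45e-10 (Bex2) to 7.5e-05 (Nt5e).

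Some other genes outside the lists, also picked after their values were seen, were lower in crypt EC. Among them were genes of bile acid handling in the ileum, with Fabp6 at 10.3 against 572 (-5.73), Slc51a at 5.79 against 249.9 (-5.21) and Slc51b at 2.04 against 59 (-4.36). The goblet-derived resistin-like gene Retnlb was at 9.89, 10.7, 6.64 and 2.44 in crypt EC and 475, 295, 445 and 455 in crypt epi (-5.76), and Car4, a carbonic anhydrase of the brush border, at 19.6 against 466 (-4.49). The limma adjusted p ranged from 1.08e-08 (Slc51a) to 5.61e-07 (Retnlb).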
